A study of Homo sapiens with 6 samples.

Results

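The transcripts described here encode 10 heat shock chaperones, members of the machinery that opens Argonaute proteins for small-RNA loading or of the same heat shock families. They are the HSP90 pair HSP90AA1 and HSP90AB1, the HSP70 proteins HSPA8, HSPA1A and HSPA1B, the exchange factor HSPH1, the J-domain proteins DNAJA1 and DNAJB1, the small heat shock protein HSPB1 and the mitochondrial chaperonin HSPD1. They were chosen by gene name from a count table of 48162 genes, and each name had 1 row. All 10 were among the 16233 genes that passed the filter on low counts. Each was measured as RNA in Ago2 precipitates from HEK293, an established human embryonic kidney line. One group of 3 libraries came from cells co-transfected with Flag-Ago2 and a miR-219 mimic, and the other of 3 libraries from cells co-transfected with Flag-Ago2 and a negative control mimic. Each group had 1 library from each of 3 sampling dates, 22 August, 5 September and 18 September. All 6 libraries therefore carried the transfected Flag-Ago2, and the complexes were collected on anti-Flag agarose.

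HSP70 and HSP90 are ATP-driven chaperones. A J-domain protein hands a client to HSP70 and starts its ATP cycle, an exchange factor such as HSPH1 releases the bound nucleotide, and HSP90 with its co-chaperones holds the client in an open form. In human and fly extracts this machinery lets an empty Argonaute take up a small-RNA duplex. HSPB1 and HSPD1 belong to heat shock families outside that cycle: HSPB1 binds unfolding proteins without ATP, and HSPD1 folds proteins inside mitochondria. The values below are of the transcripts, not of the proteins or their loading activity. A level in a precipitate depends on both the amount of a transcript in the cells and its recovery with Ago2, and no RNA from unprecipitated cells was used here, so less RNA per cell and less RNA bound cannot be told apart.

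The 5p and 2-3p mature strands of miR-219a in RefSeq (GRCh38.p14) are printed as examples of what the transfected RNA can look like. The seed, bases 2 to 8, is in capitals. RefSeq also lists a 1-3p strand from the miR-219a gene on chromosome 6, at chr6:33207896-33207917 on the plus strand, which is not printed. The sample labels do not say which strand the mimic carries. The 5p strand is the same from both miR-219a genes, at chr6:33207855-33207875 and chr9:128392676-128392696, and the 2-3p strand comes from the chromosome 9 gene, at chr9:128392632-128392653 on the minus strand.
hsa-miR-219a-5p: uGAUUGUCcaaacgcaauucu
hsa-miR-219a-2-3p: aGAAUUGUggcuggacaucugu

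Libraries held 20233819 to 34408699 counts. The AGO2 transcript took 10.6 to 18.0% of the counts and mitochondrially encoded transcripts 5.66 to 13.3%, with the highest mitochondrial share in the mimic library of 22 August. The 7 markers fixed for HEK293 were all present, summing to 1532 to 1695 CPM (counts scaled to library size) in mimic libraries and 1424 to 1848 CPM in control libraries. Of other cell types, intestinal epithelium (12 of 12 markers listed) summed to 10.2 to 28.5 CPM in mimic libraries and 14.8 to 34.2 CPM in control libraries. CDX2 made up 8.71 to 22.7 CPM of that sum. FABP1 was at 0 in the mimic library of 22 August and the control library of 5 September, where PIGR had 0.0953 and 0.0291 CPM. The other 4 libraries had 1.62 to 3.31 CPM of FABP1 and 1.84 to 10.7 CPM of PIGR. Plasma cell markers (6 of 6) summed to 56.5 to 70.1 CPM and 53.1 to 86.3 CPM in the same order of groups, with IGKC at 0 in every library. SDC1 made up 53.0 to 62.3 CPM of that sum, while IGHA1 was at 0 in the mimic library of 22 August and the control library of 5 September and had 5.26 to 16.4 CPM in the other 4. Leukocyte markers (4 of 4) stayed at or below 1.43 CPM, and those of endothelium and fibroblasts (3 of 4 listed) at or below 1.86 CPM. Erythroid markers (5 of 5) were at or below 0.198 CPM in 5 libraries, while the control library of 5 September reached 687.5 CPM, nearly all from HBB. The part of these transcripts in the chaperone values was not tested. Results without each library are given where they change a call or a direction.

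Together the 10 transcripts took 1.32, 1.51 and 1.26% of the counts in mimic libraries of 22 August, 5 September and 18 September, against 1.54, 1.41 and 1.26% in control libraries of the same dates. The means were 1.37 ± 0.131% with the mimic and 1.40 ± 0.141% with the control (SD, n = 3 each), and the groups overlapped. With AGO2 and the mitochondrially encoded genes left out of the total, the shares were 1.78 ± 0.196% with the mimic and 1.76 ± 0.217% with the control. In both forms the group means differed by less than the SD of either group.

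Per kilobase of gene model, over all 6 libraries, the inducible HSP70 gene HSPA1B stood first at 1022 ± 181 CPM per kb (mean ± SD). It was followed by HSP90AB1 at 932 ± 124, HSPA1A at 796 ± 126, HSP90AA1 at 740 ± 124 and HSPA8 at 609 ± 73.2 CPM per kb. The library ranges of neighbours among these 5 overlapped. HSPD1 at 445 ± 42.6 CPM per kb lay below HSPA8 and above DNAJB1 without overlap with either. DNAJB1 had 318 ± 31.4 and DNAJA1 240 ± 33.0 CPM per kb, with overlapping ranges. The lowest levels per kb were those of HSPH1 at 80.7 ± 9.57 and HSPB1 at 75.6 ± 5.47, which also overlapped each other. HSPA1B ranked 27th and HSPB1 555th among tested protein-coding genes by level per kb, so every one of the 10 was abundant.

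The HSP90 transcripts differed little between mimics. HSP90AA1 (ENSG00000080824, chr14:102547075-102606036 of hg19, minus strand), the more stress-responsive of the cytosolic HSP90 genes, had 2839, 2921 and 2066 CPM in mimic libraries in date order, against 3049, 2644 and 2059 CPM in control libraries. Both groups were lowest on 18 September, and they overlapped. The means were 2609 ± 472 CPM in mimic libraries and 2584 ± 497 CPM in control libraries (SD, n = 3 each), a log2 mimic-over-control change of 0.01 (SE 0.21, 95% interval −0.43 to 0.46). HSP90AB1 (ENSG00000096384, chr6:44214824-44221620, plus strand), the constitutive cytosolic HSP90, had 2758, 2555 and 2102 CPM in mimic libraries, against 2877, 2575 and 2079 CPM in control libraries. Here too the libraries of 18 September were the lowest in each group. Its means were 2472 ± 336 CPM in mimic libraries and 2510 ± 403 CPM in control libraries, a log2 mimic-over-control change of −0.02 (SE 0.19, 95% interval −0.43 to 0.39). Adjusted p was 0.999 for both by edgeR's quasi-likelihood test with Benjamini-Hochberg adjustment over all tested genes.

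All 3 cytosolic HSP70 genes had lower means with the mimic, by little for HSPA1A and HSPA1B, and none passed the test. HSPA8 (ENSG00000109971, chr11:122928197-122933938, minus strand), the constitutive cytosolic HSP70, had 1486, 1317 and 1377 CPM in mimic libraries, against 1817, 1418 and 1577 CPM in control libraries. The mimic library was the lower of the pair on each date, yet the groups overlapped. The means were 1393 ± 86.1 CPM in mimic libraries and 1604 ± 201 CPM in control libraries, a log2 mimic-over-control change of −0.20 (SE 0.16, 95% interval −0.56 to 0.15, edgeR unadjusted p = 0.237, adjusted p = 0.999). HSPA1A (ENSG00000204389, chr6:31783291-31785717, plus strand), one of the near-identical inducible HSP70 genes, had 1764, 2261 and 1600 CPM in mimic libraries, against 2245, 2091 and 1625 CPM in control libraries. Its copy HSPA1B (ENSG00000204388, chr6:31795512-31798031, plus strand) had 2940, 2786 and 1979 CPM in mimic libraries, against 2820, 2922 and 2003 CPM in control libraries. The groups overlapped for both, and the mimic libraries lay on either side of their controls. The log2 fold changes were −0.08 for HSPA1A (SE 0.19, 95% interval −0.50 to 0.34) and −0.01 for HSPA1B (SE 0.21, 95% interval −0.47 to 0.45).

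Reads that match HSPA1A and HSPA1B equally may have been split or lost in the authors' counting, so each single value is uncertain. Their sum was 4704, 5047 and 3578 CPM in mimic libraries, against 5065, 5013 and 3628 CPM in control libraries. The summed means were 4443 ± 768 CPM in mimic libraries and 4569 ± 815 CPM in control libraries, a log2 mimic-over-control change of −0.04 (SE 0.21, 95% interval −0.50 to 0.42, edgeR adjusted p = 0.999). The sum thus gave the same picture as the single genes.

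HSPH1 (ENSG00000120694, chr13:31710762-31736525, minus strand), the HSP110 protein that exchanges nucleotide on HSP70, had 294, 324 and 256 CPM in mimic libraries, against 312, 321 and 243 CPM in control libraries. The groups covered nearly the same range. The means were 291 ± 34.3 CPM in mimic libraries and 292 ± 42.5 CPM in control libraries, a log2 mimic-over-control change of −0.00 (SE 0.16, 95% interval −0.34 to 0.34) and 0.00047 under scaling by library size alone.

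The J-domain genes both had a lower mean with the mimic, and neither passed. DNAJA1 (ENSG00000086061, chr9:33025209-33039905, plus strand), a type I J-domain partner of HSPA8, had 504, 563 and 532 CPM in mimic libraries, against 723, 530 and 580 CPM in control libraries. The control library of 22 August stood above the rest, and the remaining 5 libraries overlapped. The means were 533 ± 29.6 CPM in mimic libraries and 611 ± 100 CPM in control libraries, a log2 mimic-over-control change of −0.20 (SE 0.16, 95% interval −0.54 to 0.15, edgeR unadjusted p = 0.235). DNAJB1 (ENSG00000132002, chr19:14625582-14640582, minus strand), the heat-inducible type II J-domain protein, had 610, 768 and 724 CPM in mimic libraries, against 661, 797 and 757 CPM in control libraries. The mimic library was the lower of the pair on each date by a small step, and the groups overlapped. Its means were 701 ± 81.8 CPM in mimic libraries and 738 ± 70.1 CPM in control libraries, a log2 mimic-over-control change of −0.08 (SE 0.16, 95% interval −0.42 to 0.26).

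HSPB1 (ENSG00000106211, chr7:75931861-75933612, plus strand), the ATP-independent holdase, had 99.2, 111 and 116 CPM in mimic libraries, against 120, 111 and 102 CPM in control libraries. The order of the libraries by date ran in opposite directions in the groups, and their means of 109 ± 8.51 CPM in mimic libraries and 111 ± 9.02 CPM in control libraries lay close (log2 change −0.03, SE 0.13, 95% interval −0.33 to 0.26). HSPD1 (ENSG00000144381, chr2:198351305-198381461, minus strand), the mitochondrial HSP60, had 1106, 1221 and 1153 CPM in mimic libraries, against 1123, 919 and 1035 CPM in control libraries. It had the highest log2 fold change of the 10, and the groups still overlapped through the control library of 22 August. The means were 1160 ± 57.6 CPM in mimic libraries and 1026 ± 102 CPM in control libraries, a log2 mimic-over-control change of 0.18 (SE 0.15, 95% interval −0.16 to 0.51, edgeR unadjusted p = 0.269).

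**Figure D1:**
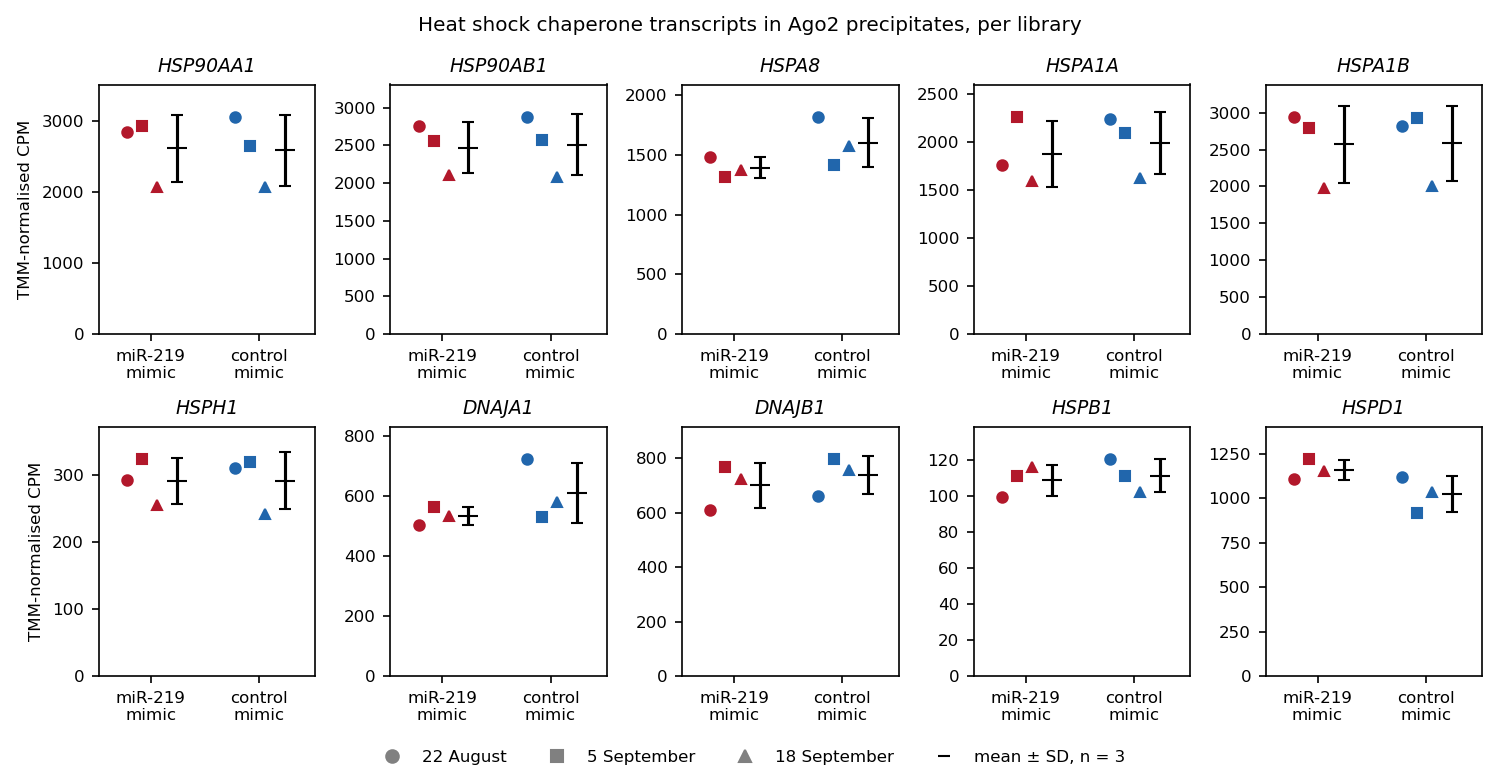
Level of each chaperone transcript in each library, in TMM-normalised CPM on axes that start at 0, with mimic libraries left and control libraries right. Symbols give the date, and bars the mean ± SD of 3 libraries. The groups overlap for all 10, and the triangles of 18 September are the lowest of each group for HSP90AA1, HSP90AB1, HSPA1A, HSPA1B and HSPH1.

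Over the whole table, edgeR called 0 genes between mimic and control libraries at an adjusted p under 0.05, which is 0% of 16233, and 488 genes had an unadjusted p under 0.05. Of the 10 chaperones, 0 were called and 0 had an unadjusted p under 0.05. Their log2 fold changes ran from −0.20 to 0.18 with 2 above 0 and 8 below, and the median was −0.03, beside 0.00 over all tested genes. The 95% intervals of all 10 lay inside a 1.5-fold change in either direction, a log2 value of 0.58. The lowest bound was −0.56 for HSPA8 and the highest 0.51 for HSPD1. Smaller changes were within these intervals and were not detectable with 3 libraries a group. Groups that did not overlap were met in 0 of the 10, where mimic libraries lay above every control library in 4.22% of genes and below in 3.84%. DESeq2 called 5 genes and no chaperone. The median of the 10 was 0.05 without the mimic library of 18 September, 0.04 without the control library of 22 August and −0.13 without the control library of 18 September, and 0 of the 10 were called in each case.

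With the date of collection as a block, 0 genes (0%) were again called by edgeR, 933 had an unadjusted p under 0.05, and the adjusted p of the 10 chaperones ran from 0.824 to 0.998. The lowest, 0.824, was that of HSPA8 at a log2 mimic-over-control change of −0.20 (SE 0.10, 95% interval −0.44 to 0.04) and of HSPD1 at 0.18 (SE 0.12, 95% interval −0.10 to 0.46). DNAJA1 had −0.19 (SE 0.14, 95% interval −0.51 to 0.13).

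By date, the log2 ratio of mimic over control lay below 0 on all 3 dates for HSPA8 (−0.29, −0.11 and −0.20 in date order) and DNAJB1 (−0.12, −0.05 and −0.07). Of all tested genes 14.4% did so, and 15.6% lay above 0 on all dates, which none of the 10 did. The remaining 8 changed sign between dates. DNAJA1 had −0.52 on 22 August, 0.09 on 5 September and −0.12 on 18 September. HSPA1A had −0.35, 0.11 and −0.02, HSPB1 −0.28, 0.00 and 0.18, and HSPD1 −0.02, 0.41 and 0.16 in the same order. On 22 August 9 of the 10 ratios were below 0, with a median of −0.11, beside 0.02 over all genes. On 5 September the median of the 10 was 0.01 and on 18 September −0.01.

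**Figure D2:**
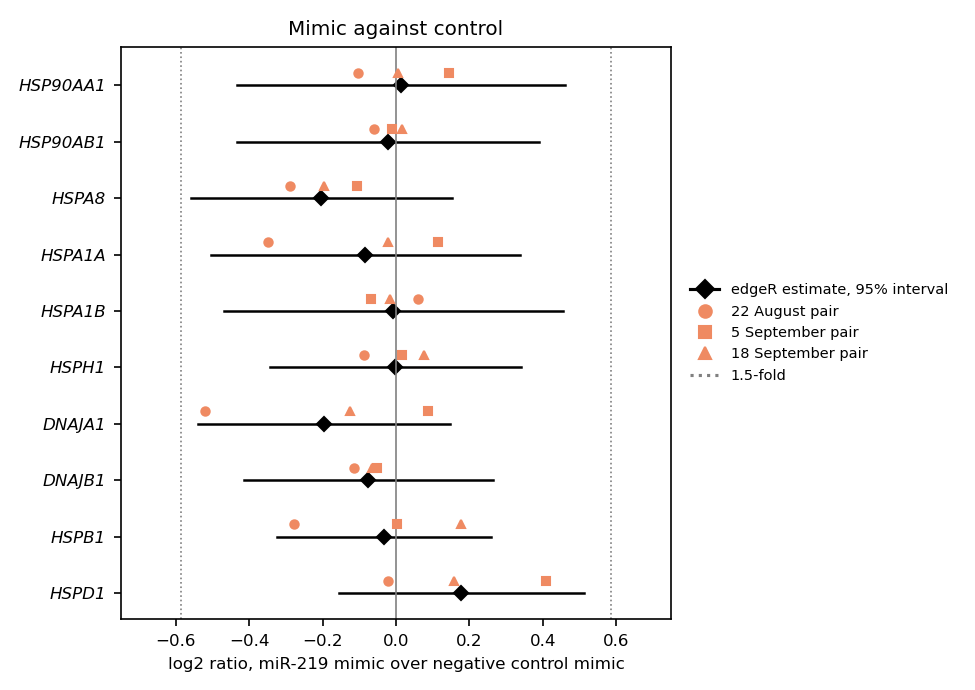
Log2 ratio of mimic over control for each chaperone. Diamonds and lines are edgeR estimates with 95% intervals, coloured symbols the ratio of the pair of each date, and dotted lines a 1.5-fold change. Every interval crosses 0 and stays between the dotted lines, and the 22 August circles lie left of 0 for all but HSPA1B.

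Shares within a family do not depend on depth or scaling. HSPA1A took 37.5, 44.8 and 44.7% of the counts of HSPA1A and HSPA1B in mimic libraries, against 44.3, 41.7 and 44.8% in control libraries, in date order. The mimic library of 22 August stood apart at 37.5% (Wilson 95% interval 37.2 to 37.8%), while the other 5 lay between 41.7 and 44.8%. On 18 September the intervals of the pair overlapped, at 44.4 to 45.1% for both the mimic and the control library. HSP90AA1 took 50.7, 53.3 and 49.6% of the counts of both cytosolic HSP90 genes in mimic libraries, against 51.5, 50.7 and 49.8% in control libraries, so that both HSP90 transcripts contributed nearly equal counts in every library. HSPA8 took 24.0, 20.7 and 27.8% of the summed counts of HSPA8, HSPA1A and HSPA1B in mimic libraries, against 26.4, 22.0 and 30.3% in control libraries. The mimic library was the lower of the pair on each date, and both groups were highest on 18 September. DNAJB1 took 54.8, 57.7 and 57.6% of the counts of both J-domain genes in mimic libraries, against 47.8, 60.1 and 56.6% in control libraries. Only the control library of 22 August, where DNAJA1 was high, was under 50% among these 6. The intervals cover counting error only.

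**Figure D3:**
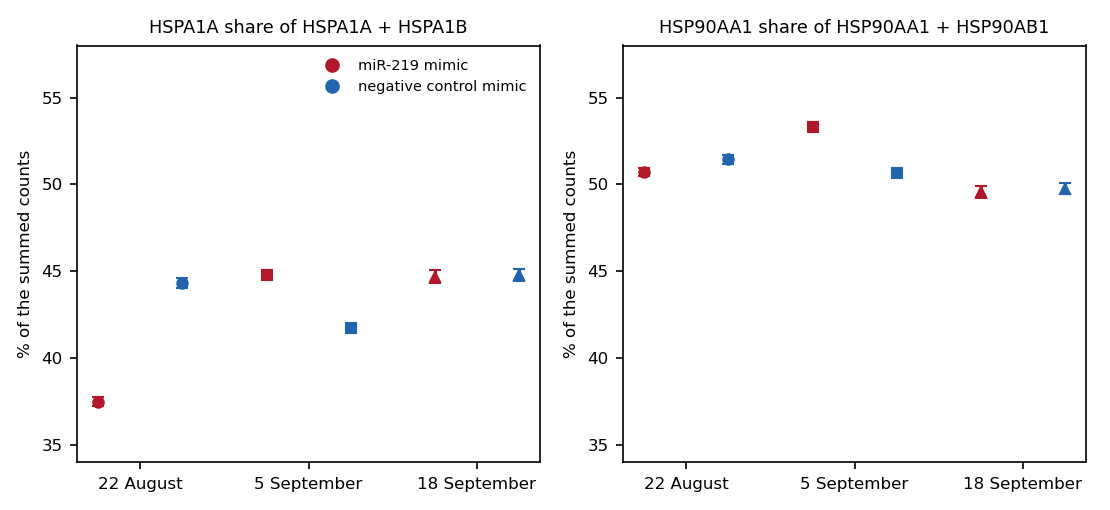
Share of HSPA1A in the counts of HSPA1A and HSPA1B (left panel) and of HSP90AA1 in those of HSP90AA1 and HSP90AB1 (right panel), in percent, for each library by date, mimic left of control; the axes start at 34%. Bars are Wilson 95% intervals, mostly smaller than the symbols. The mimic library of 22 August has the lowest HSPA1A share, 37.5%, and all HSP90AA1 shares lie between 49.6 and 53.3%.

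HSP90AA1, HSP90AB1, HSPA1A, HSPA1B and HSPH1 were lower in both libraries of 18 September than in any of the other 4 libraries, while the 5 remaining transcripts were not. Set against the mean of the other dates, in a fit with date and mimic as terms, HSPA1B had a log2 difference of −0.53 (SE 0.11, 95% interval −0.78 to −0.27) and HSP90AA1 −0.47 (SE 0.11, 95% interval −0.74 to −0.20). HSPA1A had −0.37 (SE 0.13), HSP90AB1 −0.36 (SE 0.11) and HSPH1 −0.32 (SE 0.11). The levels of these 5 on 18 September were 0.694 to 0.798 times those of the other dates. Adjusted p over all genes ran from 0.192 to 0.258 for these 5, so 0 of the 10 were called by edgeR, which called 8 genes (0.0493% of 16233), all lower. At an unadjusted p under 0.05 stood 5 of the 10, beside 16.4% of all genes, and both libraries of 18 September lay below the other 4 in 13.5% of all genes.

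Other settings and smaller sets of libraries moved that count for 18 September. Called by edgeR were HSP90AA1, HSPA1A, HSPA1B and HSPH1 without the mimic library of 22 August, where 1236 genes were called in all, and HSP90AA1, HSP90AB1, HSPA1B and HSPH1 without the 22 August control library, where 3748 were. Without the mimic library or without the control library of 5 September, HSP90AA1 and HSPA1B were called, among 843 and 254 genes in the same order. Without either library of 18 September 0 were called. DESeq2 called HSPA1B (adjusted p = 0.0231) among 155 genes, and edgeR with no filter on low counts called HSPA1B, HSP90AA1, HSP90AB1 and HSPA1A among 494. The libraries of 18 September were also the shallowest, with 20379336 counts for the mimic and 20233819 for the control. Scaling by library size alone moved the median of all genes on 18 September by 0.11 on the log2 scale, and 3 of the 10 (HSP90AA1, HSP90AB1 and HSPA1B) then lay below the other 4 libraries, beside 6.73% of genes. Under that scaling HSPA1B had −0.42 and HSP90AA1 −0.37. The part of depth in the date difference was not tested.

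The constitutive HSPA8 had 1377 CPM (mimic) and 1577 CPM (control) on 18 September, a mean of 1477 CPM beside 1510 ± 217 CPM in the other 4 libraries (log2 difference −0.02, SE 0.11). DNAJB1 averaged 740 CPM on 18 September and 709 ± 88.4 CPM in the other libraries (0.07, SE 0.10), HSPD1 1094 and 1092 ± 126 CPM (0.00, SE 0.12), HSPB1 109 and 110 ± 8.67 CPM (−0.01, SE 0.13) and DNAJA1 556 and 580 ± 98.4 CPM (−0.06, SE 0.14). These 5 thus lay near the level of the other dates, though their intervals allow differences of the size seen in HSPH1 for DNAJA1. Library size alone put HSPA8 at 0.08 and DNAJA1 at 0.05.

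On 22 August, 0 of the 10 were called against the other dates, where 55 genes were (0.339% of 16233, 54 higher and 1 lower). HSP90AB1 was higher in both libraries of 22 August than in the other 4, at a log2 difference of 0.28 (SE 0.10, edgeR adjusted p = 0.670), as were 6.19% of genes. DNAJB1 was lower in both than in the other 4, at −0.26 (SE 0.10, edgeR adjusted p = 0.714), as were 5.38% of genes. HSP90AA1 had 0.30 (SE 0.11) and HSPA1B 0.27 (SE 0.11) without such a gap. At an unadjusted p under 0.05 stood 4 of the 10, beside 6.89% of all genes. Scaling by library size alone moved the median of all genes on this date by −0.12 and that of the 10 chaperones to 0.00, beside 0.12 in the TMM scaling.

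On 5 September, 0 of the 10 and 0 genes in all (0%) were called, with 2089 genes at an unadjusted p under 0.05. HSPH1 (0.23, SE 0.10) and DNAJB1 (0.19, SE 0.10) were higher in both libraries of that date than in the other 4, as were 10.4% of genes, and none of the 10 was lower in both, as were 9.05%. HSPA1B had 0.25 (SE 0.11, edgeR unadjusted p = 0.0475) and HSPA1A 0.28 (SE 0.13). DESeq2 called 64 genes on this date and none of the 10. DNAJB1 thus had its lowest libraries on 22 August, whereas HSPA1A, HSPA1B and HSPH1 had theirs on 18 September.

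**Figure D4:**
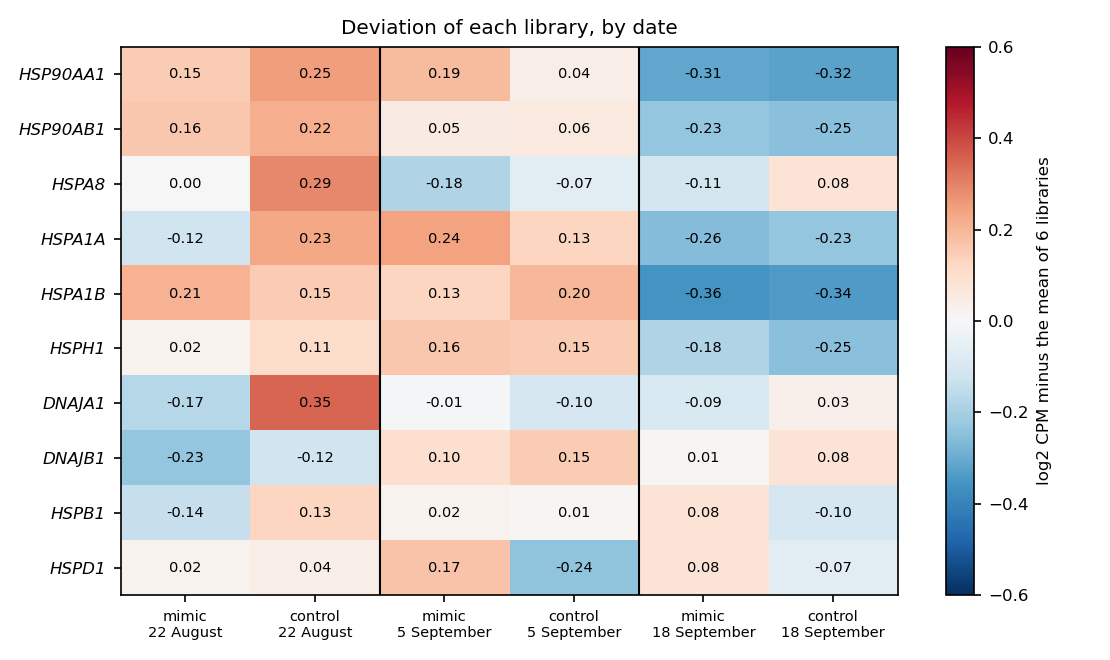
Deviation of each library from the mean of the 6, in log2 CPM, for the 10 chaperones (rows), with the libraries grouped by date and the mimic left of the control. Blue is lower and red higher. The 18 September columns lie between −0.18 and −0.36 for HSP90AA1, HSP90AB1, HSPA1A, HSPA1B and HSPH1, in mimic and control alike.

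Heat shock genes are switched on by heat shock factors, which bind repeated GAA blocks in alternating orientation. RefSeq windows from 250 bases before to 50 after each annotated start (GRCh38.p14) were searched upstream of the start on both strands for a pair of blocks, GAANNTTC or TTCNNGAA, and for 3 blocks, GAANNTTCNNGAA or TTCNNGAANNTTC, which contain the pair. All 10 genes had a window, and 9 of 10 held a pair upstream in at least 1 of their windows, beside 14% of 27305 genes. HSP90AA1, HSP90AB1, HSPA8 and HSPD1, 4 of 10, held 3 blocks, beside 0.557%. The letters were not found in the single HSPH1 window. The stretches below are printed to set genes that were low on 18 September beside genes that were not. They run in 5′ to 3′ direction on the gene's strand, with the blocks in capitals. For HSPA8 only the stretch nearest the start is printed. Its window held 2 matches to 3 blocks upstream, as did the printed window of HSP90AB1, where both are shown.
HSPA1B (chr6:31827618-31827655, plus strand, low on 18 September): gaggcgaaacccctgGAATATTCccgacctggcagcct
HSPA1A (chr6:31815422-31815459, plus strand, low on 18 September): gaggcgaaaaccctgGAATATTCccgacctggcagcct
HSP90AA1 (chr14:102087090-102087147, minus strand, low on 18 September): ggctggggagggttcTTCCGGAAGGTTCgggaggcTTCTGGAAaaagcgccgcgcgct
HSP90AB1 (chr6:44247763-44247858, plus strand, low on 18 September): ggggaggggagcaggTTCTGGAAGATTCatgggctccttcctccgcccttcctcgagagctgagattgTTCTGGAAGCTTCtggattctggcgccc
HSPA8 (chr11:123062164-123062206, minus strand, not low): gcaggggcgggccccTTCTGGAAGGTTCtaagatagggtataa
DNAJB1 (chr19:14518422-14518489, minus strand, not low): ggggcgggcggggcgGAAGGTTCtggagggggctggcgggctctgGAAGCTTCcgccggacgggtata
HSPD1 (chr2:197500053-197500090, minus strand, not low): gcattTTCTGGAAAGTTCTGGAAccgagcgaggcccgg

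Both kinds of stretch occurred in each set. The inducible HSPA1A and HSPA1B, low on 18 September, held a pair but not 3 blocks upstream. The same was true of DNAJB1, DNAJA1 and HSPB1, which were not low. The stretches of DNAJA1 and HSPB1 are not printed. Over its whole window, past the start, DNAJA1 also held 1 match to 3 blocks. The 3-block stretch stood in HSP90AA1 and HSP90AB1, low on 18 September, and in HSPA8 and HSPD1, which were not. HSPH1 was low without a match in its window. Upstream of the start, the HSPA1A and HSPA1B windows shared 235 of 249 aligned bases (94.4%). These matches describe letters in the windows and do not show binding in these cells.

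HSPA6, the HSP70 gene that is nearly silent without stress in human cells, was looked at after its values were seen. It had 713, 738 and 602 CPM in mimic libraries, against 857, 813 and 559 CPM in control libraries. The means were 685 ± 72.3 CPM in mimic libraries and 743 ± 161 CPM in control libraries, a log2 mimic-over-control change of −0.12, and the log2 difference of 18 September from the other dates was −0.42. Its level was of the order of DNAJB1, and its lowest libraries were those of 18 September in both groups. Also chosen after their values were seen, the endoplasmic reticulum chaperones HSPA5 and HSP90B1 had −0.69 and −0.68 on 18 September (edgeR adjusted p = 0.162 for both). HSPA5 had 675, 614 and 409 CPM in mimic libraries, against 937, 672 and 478 CPM in control libraries.

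The genes most like the inducible chaperones were ranked by Pearson's r over the 6 libraries with the mean standardised log2 CPM of HSPA1A, HSPA1B, DNAJB1 and HSPH1. Among genes outside the 10, JSRP1 came first (r = 0.998), then the membrane protease ADAM10 (0.996), AC015849.2 (0.993), CTD-2377D24.6 (0.992) and TSIX (0.992), an antisense gene whose reads cannot be told from its partner's without strand. The 95th percentile over all tested genes was 0.823. Of the 4 chaperones in the mean, HSPH1 (0.949) and HSPA1A (0.943) followed it most closely and HSPA1B less so (0.811), whereas DNAJB1 had 0.285. Each of these 4 is itself part of the mean, which raises its r, so their values cannot be set beside the percentile. These correlations rest on 6 libraries from 3 dates, and the leaders were picked from all 16233 tested genes, so they describe these libraries only. JSRP1 lay near 1 CPM, at 0.999 ± 0.185 CPM in mimic libraries and 1.06 ± 0.184 CPM in control libraries. AC015849.2 (0.459 ± 0.371 CPM with the mimic, 0.575 ± 0.405 CPM with the control) and CTD-2377D24.6 (1.33 ± 0.402 and 1.42 ± 0.418 CPM) were scarce too. ADAM10 lay at 59.3 ± 6.71 CPM in mimic libraries and 60.9 ± 5.61 CPM in control libraries.

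The wider chaperone network was read from lists of genes that exclude the 10, and no gene of any list was called between mimic and control by edgeR as fitted here. With no filter on low counts, OAS3 of the interferon list was called (log2 change 0.83, edgeR adjusted p = 0.00131). Of 28 HSP90 relatives and co-chaperones, 10 lay above 0 and 18 below with a median log2 fold change of −0.06. AHSA1, which activates the HSP90 ATPase, had 124 ± 7.11 CPM in mimic libraries and 151 ± 18.6 CPM in control libraries (log2 change −0.28). The ATPase RUVBL2 had 116 ± 21.2 CPM in mimic libraries and 144 ± 14.5 CPM in control libraries (−0.31). PPP5C, an HSP90-bound phosphatase, had 0.23. Of 23 HSP70 relatives and exchange factors, 6 lay above 0 and 17 below with a median of −0.09. The 3 with the lowest p were HSPA2, an HSP70 abundant in testis (0.20), HSPA12B (0.54, at under 1 CPM in each library) and GRPEL1, the exchange factor of mitochondrial HSP70 (−0.20).

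Of 41 tested J-domain proteins (42 in the list), 19 lay above 0 and 22 below with a median of −0.02. DNAJC2, a ribosome-bound J-domain protein, had 46.3 ± 2.23 CPM in mimic libraries and 56.6 ± 3.41 CPM in control libraries (log2 change −0.29, edgeR unadjusted p = 0.0429), the lowest unadjusted p among the listed genes and a set of values without overlap. DNAJB11 of the endoplasmic reticulum had −0.28 and DNAJC8, found with splicing factors, −0.29. Of 18 chaperonin, prefoldin and mitochondrial protease genes, 2 lay above 0 and 16 below with a median of −0.20, and 0 were called. CCT8, a subunit of the cytosolic chaperonin, had 436, 455 and 469 CPM in mimic libraries, against 663, 458 and 558 CPM in control libraries (log2 change −0.30). The pairs differed most on 22 August and hardly on 5 September. PFDN1, a prefoldin subunit, had −0.23 and LONP1, a mitochondrial protease, −0.25. HSPD1 at 0.18 lay on the other side of 0 from most of this list.

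Small heat shock proteins were scarce: 5 of 10 passed the filter, with 3 above 0, 2 below and a median of 0.05, and CRYAB (0.37), HSPB6 (0.32) and HSPB9 (−0.33) all lay at or under 3.19 CPM. Of 24 heat shock factors and other heat-inducible genes, 8 lay above 0 and 16 below with a median of −0.06. HSF4, a heat shock factor known from the lens, had −0.68 at under 1 CPM. Of 15 Argonaute and RISC loading genes, 10 lay above 0 and 5 below with a median of 0.08. The list includes AGO2, which was transfected for every library, and the median is the value of AGO2 itself. CDC37, the kinase-specific HSP90 co-chaperone, had −0.21 and TARBP2, the Dicer partner, −0.24, and AHSA1 is also in this list. The 16 interferon-induced genes had a median of 0.28 with 13 above 0, and OAS3 (0.83), OAS2 (0.63) and IFIH1 (0.47), sensors of double-stranded RNA, had the lowest p. In the fit without a block, their sign depended on which library of 22 August was left out. Without the mimic library they had −1.09, −2.15 and −0.63, and without the control library 2.28, 3.30 and 1.65. The ratio of mimic over control lay above 0 on all 3 dates for each, as in 15.6% of all genes. With the date as a block they had 0.56 (SE 0.15), 0.57 (SE 0.18) and 0.50 (SE 0.12), each at an edgeR adjusted p of 0.824. Some genes stand in more than 1 list.

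By date, both libraries of 18 September lay below the other 4 in 8 of 23 HSP70 relatives (34.8%), among them HSPA5 and HSPA6, in 2 of 28 HSP90 relatives (7.14%), in 6 of 41 J-domain genes (14.6%), in 3 of 24 heat-inducible genes (12.5%), in 2 of 15 Argonaute and RISC loading genes (13.3%), in 4 of 16 interferon-induced genes (25%), and in 0 of 18 chaperonin and 0 of 5 small heat shock genes, beside 13.5% of all genes. The 2 Argonaute and RISC loading genes were the transfected AGO2 and FKBP5. Differences between lists were not tested. In the interferon list all 16 genes were called on 22 August, with a median log2 difference of 3.08, where 0 of the 10 chaperones were called.

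**Figure D5:**
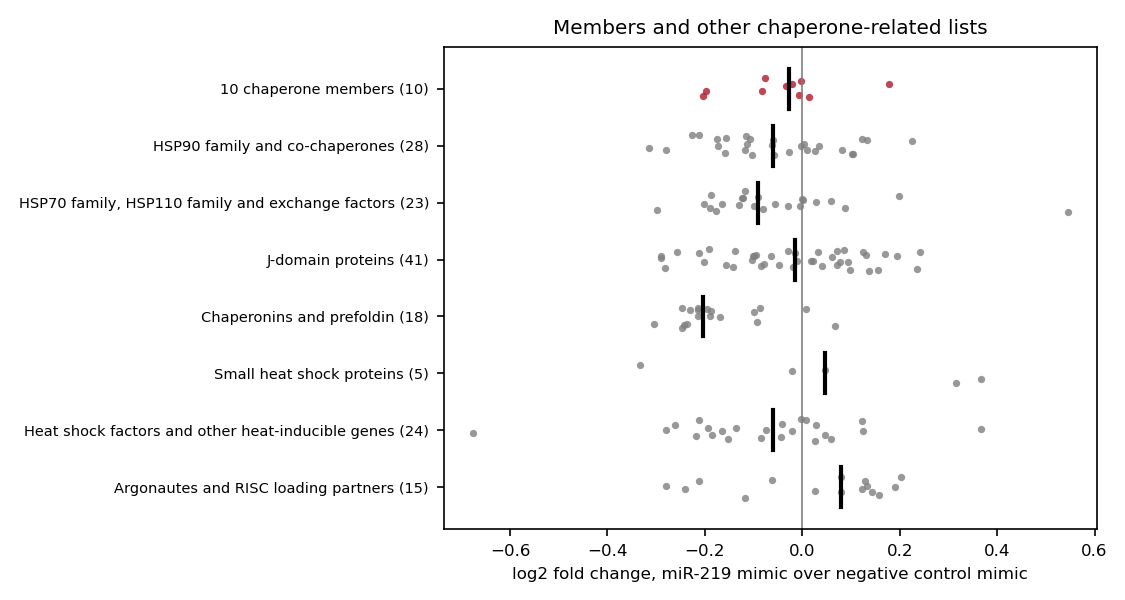
Log2 fold change of mimic over control for the 10 chaperones (red, top row) and for the genes of each list (grey). The number of tested genes is in brackets and a bar marks the median. The interferon list is not drawn. No point was called. The chaperonin and prefoldin list has the lowest median, −0.20, and the 10 chaperones lie between −0.20 and 0.18.

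Some chaperone genes overlap genes on the opposite strand: WDR20 at HSP90AA1, HSPA1L at HSPA1A, TECR at DNAJB1, and HSPE1 and MOB4 at HSPD1. The strand setting of the counting is not given in the sources used here, so reads of such partners cannot be told apart. The partners had at most 2849 counts in a library. Rows named as pseudogenes of a member held at most 0.24% of its counts in any library, the highest share being that of HSPB1.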

How the data were processed

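The authors' deposited table gives read counts per gene for 6 Ago2 RIP-seq libraries, used as whole counts. Per the submitters' processing notes, the tools included STAR 2.5, HTSeq 0.6.1 and DESeq2, with the hg19 build; the strand setting is not given in the sources used here. All columns of sample values were mapped by name, and the labels gave groups and dates. The 10 genes and all gene lists were chosen with earlier results of these data known.

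Counts were fitted in R 4.3.3 with edgeR 4.0.16: filterByExpr (min.count 10, min.total.count 15), TMM, the quasi-likelihood F test over 16233 genes and Benjamini-Hochberg adjustment at 0.05, without a block. Each date was set against the mean of the other dates in a fit with date and mimic. CPM values are TMM-normalised; marker sums use raw library sizes. Each SE was obtained by dividing the absolute log2 change by the root of its F statistic, ratios per date use a prior count of 2, ± is SD, and levels per kb divide by the gene length in the table. limma 3.58.1 (voom) and DESeq2 1.42.0 were alternatives; Python 3.11.15, pandas 2.3.3 and matplotlib 3.10.9 made tables and figures. The code of the fit was run on simulated counts with known changes. A pass mark was set only for changes far larger than those of the chaperones, so smaller changes are not covered.

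Named genes were the 10, the 3 genes of each list with the lowest p and the 5 genes most alike in pattern; HSPA6, HSPA5 and HSP90B1 were added after their values were seen, and some genes are not reported here. Libraries are paired by the shared date in the labels. Deviations within a date correlated at 0.0466, 0.154 and 0.513 in date order. The labels do not say whether dates were separate cultures, so p-values measure the spread between these libraries, which may be technical. The biological coefficient of variation was 17.1%, and correlations between libraries were 0.980 to 0.991.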

Additional observations from a re-analysis of the deposited data

Results flagged for a closer look

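For 8 of the 10 chaperones the log2 ratio of mimic over control changed sign between dates. The highest minus the lowest ratio was 0.61 for DNAJA1, 0.46 for HSPA1A, 0.46 for HSPB1 and 0.43 for HSPD1. It was 0.25 for HSP90AA1, 0.16 for HSPH1, 0.13 for HSPA1B and 0.077 for HSP90AB1. Each date has 1 library per group, so whether the ratio differs between dates was not tested. Ratios of mixed sign were met in 70.0% of all tested genes.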

How the results depend on the processing

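With 3 libraries a group, changes within each gene's interval could not be settled, and the sign of a value near 0 is not stable. Between mimic and control, 0 of the 10 chaperones were called under every alternative run, and HSPA8 (−0.28 to −0.10), DNAJA1 (−0.33 to −0.018) and HSPD1 (0.064 to 0.28) kept their direction in each. With the replicate block for date, 0 genes were called and HSPH1 turned to 0.0019; no other chaperone turned, and no call changed. HSPH1 also turned to 0.00047 with library size only, 0.0026 when AGO2 and mitochondrial genes were left out, 0.0063 with min.count 50 and 0.0030 with limma-voom, and HSPA1B to 0.00039 with min.count 50. Genes called were 20 without a low-count filter (6 higher, 14 lower), 5 with DESeq2 and 11 with DESeq2 and the block.

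Leaving out both libraries of a date was chosen after seeing the data. Without 22 August, HSP90AB1 turned to 0.0020, HSPA1A to 0.057, HSPH1 to 0.043, HSPB1 to 0.089 and ADAM10 to 0.0091. Without 5 September, HSP90AA1 turned to −0.064 and HSPA1B to 0.022. Leaving out 1 library in turn, the median of the 10 ran from −0.13 to 0.050. HSP90AA1 ran from −0.13 to 0.16, HSP90AB1 from −0.14 to 0.087, HSPA1A from −0.24 to 0.018 and HSPA1B from −0.16 to 0.15. HSPH1 ran from −0.12 to 0.082, DNAJB1 from −0.15 to 0.017 and HSPB1 from −0.090 to 0.029. Outside the 10, OAS2 ran from −2.15 to 3.30, OAS3 from −1.09 to 2.28, IFIH1 from −0.63 to 1.65, JSRP1 from −0.24 to 0.027 and ADAM10 from −0.13 to 0.027. AC015849.2 ran from −1.23 to 0.23, CTD-2377D24.6 from −0.37 to 0.13 and TSIX from −0.67 to 0.13.

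For 22 August, genes called were 240 without a filter, 115 with DESeq2 and 54 to 1363 with 1 library left out. The median of the 10 was 0.0033 with library size only, where HSPA1A turned to −0.020, HSPH1 to −0.020 and HSPD1 to −0.061. HSPB1 turned to 0.011 without a filter. With 1 library left out, the median ran from −0.037 to 0.25, HSPA1A from −0.11 to 0.28, DNAJA1 from −0.12 to 0.38, HSPB1 from −0.19 to 0.17 and HSPD1 from −0.10 to 0.20. For 5 September, genes called were 204 without a filter, 64 with DESeq2, 14 without the mimic term and 9 to 2344 with 1 library left out. There DNAJA1 ran from −0.29 to 0.14, HSPB1 from −0.057 to 0.11 and HSPD1 from −0.23 to 0.13.

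For 18 September, genes called were 20 (3 higher, 17 lower) when AGO2 and mitochondrial genes were removed, 494 without a filter, 155 with DESeq2, 41 without the mimic term and 3 to 3748 with 1 library left out. Library size only called 2 higher and 8 lower, against 0 higher and 8 lower with TMM. Of the 10, 4 were called without a filter, 1 with DESeq2 and 0 to 4 with 1 library left out. The median of the 10 was −0.084 with library size only and −0.055 with HSPA1A and HSPA1B summed, which leaves 1 low gene fewer, and ran from −0.28 to −0.13 with 1 library left out. HSPA8 turned to 0.082, DNAJA1 to 0.050 and HSPB1 to 0.093 with library size only. HSPD1 turned to −0.0014 when those genes were removed and to −0.027 without a filter. With 1 library left out, HSPA8 ran from −0.069 to 0.011, DNAJA1 from −0.18 to 0.079, HSPB1 from −0.17 to 0.14 and HSPD1 from −0.081 to 0.092. Where a date kept 1 library, it was assumed to vary like the others. Causes other than the alternatives' own construction were not tested.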
